A study of Mus musculus with 9 samples.

Results

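The genes described here encode the proteins that basement membranes are built from: the collagen IV chains Col4a1 and Col4a2, the laminin chains Lama1, Lama5, Lamb1 and Lamc1, the linker Nid1, the proteoglycan Hspg2 and the collagen-binding protein Sparc. They were chosen by name, with earlier results of these data known. Where a gene had several probe sets, the brightest on average was read. All 9 were found among 22180 genes. Expression was measured on 9 Affymetrix arrays of the mouse embryonic stem cell line NG4, a 129/Sv line with a green fluorescent reporter of Nanog, kept on gelatin with the cytokine LIF. Every group had received a pLKO.1-based lentivirus and 72 h of puromycin at 2 μg/mL, and the groups differ in the hairpin it carried: shControl, a control sequence; shPhf5a, directed at Phf5a; and shPaf1, directed at Paf1, with 3 arrays each. Phf5a is a PHD-finger subunit of the SF3b splicing complex, and Paf1 is a subunit of a complex that travels with elongating RNA polymerase II. Each group rests on 1 hairpin in 1 cell line, and the labels do not say whether replicates were transduced or grown apart. If they were not, the p-values cover technical spread alone.

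A basement membrane is a thin sheet of matrix under epithelia. Each laminin is a trimer of an alpha, a beta and a gamma chain, and laminins polymerise at the cell surface through receptors such as integrins and dystroglycan. Collagen IV forms a second, covalently linked network, and nidogen and perlecan tie both networks together. In the early mouse embryo the primitive endoderm secretes such a sheet between itself and the pluripotent cells, and parietal endoderm makes it in quantity. Embryonic stem cells make laminin as well.

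The hairpins lowered their targets. Phf5a stood at 34.4%, 55.9% and 39.6% of the control mean in shPhf5a replicates 1, 2 and 3. Paf1 stood at 37.7%, 38.9% and 38.0% of it in the shPaf1 replicates. Each target was also lower under the other hairpin: Phf5a stood at 64.3%, 62.0% and 76.2% of the control mean in shPaf1 (limma adjusted p = 0.0183), and Paf1 at 76.5%, 95.7% and 81.8% in shPhf5a (limma adjusted p = 0.0267). Of 8 embryonic stem cell markers 7 lay above the median of all genes (6.70 log2 units) on every array, with shControl means of 12.50 for Nanog, 11.62 for Sox2 and 9.62 for Pou5f1. The replicates of shPhf5a were less alike than those of the other groups: the standard deviation, over genes, of an array's distance from its group mean was 0.115, 0.128 and 0.0897 there, and between 0.0689 and 0.0760 on the other arrays. Replicate 2 of shPhf5a had the weakest knockdown, and the members' mean lay 0.16 below the group mean in it (-0.16) and 0.13 above it in replicate 1. This did not hold for each member. Lama1 lay furthest below the control mean in replicate 2 (-0.45, beside -0.30 and -0.38 in replicates 1 and 3), and Lamb1 was 0.56 above it there, beside 0.55 in replicate 3.

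Col4a1 and Col4a2 lie head to head on opposite strands and are read in opposite directions. From the starts used here, 11312826 for Col4a1 and 11312805 for Col4a2, their first transcribed bases overlap. The windows around the starts therefore share bases, among them the 50 bases after each start. The RefSeq promoter windows of both genes (GRCm38.p6, 250 bases before to 50 after the start) are shown because these genes moved together; capitals mark the 78 bases that the windows share, which read as reverse complements of each other. The Col4a1 window is chr8:11312777-11313076 on the minus strand and the Col4a2 window chr8:11312555-11312854 on the plus strand.
Col4a1: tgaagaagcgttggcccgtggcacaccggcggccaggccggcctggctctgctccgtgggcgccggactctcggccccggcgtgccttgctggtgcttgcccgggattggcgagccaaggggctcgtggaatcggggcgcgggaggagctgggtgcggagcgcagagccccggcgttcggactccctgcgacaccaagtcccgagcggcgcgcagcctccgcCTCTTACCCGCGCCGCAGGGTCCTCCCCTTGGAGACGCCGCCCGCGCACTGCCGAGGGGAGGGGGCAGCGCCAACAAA
Col4a2: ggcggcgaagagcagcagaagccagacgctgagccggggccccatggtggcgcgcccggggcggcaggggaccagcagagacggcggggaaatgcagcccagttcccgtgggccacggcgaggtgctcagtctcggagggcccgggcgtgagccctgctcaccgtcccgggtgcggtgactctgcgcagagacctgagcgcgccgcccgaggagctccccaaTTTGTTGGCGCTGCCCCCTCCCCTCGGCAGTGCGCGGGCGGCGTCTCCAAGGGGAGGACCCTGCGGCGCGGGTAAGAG
The transcription starts that the windows were placed around are 21 bases apart. The shared bases hold 1 match to the GC box (GGGCGG, either strand).

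Lamb1 and Sparc, the other pair with nearly equal changes, have windows that differ in makeup. The Lamb1 window is chr12:31265043-31265342 on the plus strand and the Sparc window chr11:55420031-55420330 on the minus strand (GRCm38.p6). Capitals mark matches, on either strand, to 6 motifs, with the share of all 32851 RefSeq windows that hold each: the GC box (GGGCGG, 35.7%), the CCAAT box (CCAAT, 37.4%), the TATA box (TATAAA, 13.6%), the AP-1 site (TGANTCA, 7.81%), the TEAD site (GGAATG, 14.7%) and a GATA site (AGATAA, 11.2%). No motif contains another of them.
Lamb1: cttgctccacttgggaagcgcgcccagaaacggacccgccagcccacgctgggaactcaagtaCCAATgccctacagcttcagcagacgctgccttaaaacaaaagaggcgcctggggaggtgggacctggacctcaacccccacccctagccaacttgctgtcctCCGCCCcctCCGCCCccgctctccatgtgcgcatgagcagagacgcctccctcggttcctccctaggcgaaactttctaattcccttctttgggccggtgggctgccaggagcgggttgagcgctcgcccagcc
Sparc: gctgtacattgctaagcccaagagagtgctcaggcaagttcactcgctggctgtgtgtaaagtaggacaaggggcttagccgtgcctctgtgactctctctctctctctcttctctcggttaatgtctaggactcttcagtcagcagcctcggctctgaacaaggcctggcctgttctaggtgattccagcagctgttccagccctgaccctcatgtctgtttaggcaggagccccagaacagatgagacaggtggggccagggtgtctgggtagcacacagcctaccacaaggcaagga
The Lamb1 window has 2 GC boxes and 1 CCAAT box, and the Sparc window has no match to any of the 6. The share of all windows without any match is not given here. Bases G and C make up 63.7% of the Lamb1 window and 55.3% of the Sparc window, where the median of all windows is 52.7%. They make up 74.0% and 73.7% of the Col4a1 and Col4a2 windows, more than in 95.2% and 94.9% of all windows. The whole Col4a1 window has 1 GC box and 1 CCAAT box, and the whole Col4a2 window 3 GC boxes and 1 CCAAT box, which are not marked above. In the other windows there are 4 GC boxes at Lama5, 5 at Hspg2, and 1 GC box, 1 CCAAT box and 1 TEAD site at Nid1. No AP-1, TATA or GATA letters were found in any of the 7 windows. A match describes the letters and is no evidence of binding. RefSeq windows were matched for 7 of the 9 genes, all but Lama1 and Lamc1.

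Both collagen IV genes rose in both knockdowns, and rose more in shPaf1. Their products assemble into the most widespread collagen IV molecule, with a pair of alpha 1 chains and a single alpha 2 chain. Col4a1 read 6.98, 6.78 and 6.87 log2 units on the shControl arrays, 7.48, 7.08 and 7.41 on the shPhf5a arrays and 7.95, 7.96 and 7.91 on the shPaf1 arrays. The groups did not overlap, in the order shControl, shPhf5a, shPaf1. Col4a1 was 1.06 log2 units higher in shPaf1 than in shControl (SE 0.10, n = 3 arrays per group here and throughout, 2.08-fold, limma adjusted p = 2.47e-05) and 0.44 higher in shPhf5a (SE 0.10, 1.36-fold, adjusted p = 0.00462). The step from shPhf5a to shPaf1 passed as well (0.61, SE 0.10, adjusted p = 0.00106).

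Col4a2 followed the same order. It read 6.12, 6.001 and 6.23 in shControl, 6.66, 6.36 and 6.57 in shPhf5a and 7.12, 7.40 and 7.07 in shPaf1, again without overlap between groups. The difference from shControl was 1.08 in shPaf1 (SE 0.11, 2.11-fold, adjusted p = 3.73e-05) and 0.41 in shPhf5a (SE 0.11, 1.33-fold, adjusted p = 0.0116), and shPaf1 lay 0.67 above shPhf5a (SE 0.11, adjusted p = 0.0011). Without shControl replicate 2 the rise in shPhf5a was 0.35 and missed the threshold (adjusted p = 0.0506). Col4a2 was the member whose mean over all arrays fell below the median of all genes, a range in which array signals compress changes. Over the 9 arrays the changes of both collagen genes from their own shControl means differed by a root mean square of 0.0978 log2 units, the second smallest of the 36 pairs of members.

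The laminin alpha chains, which carry most of the receptor binding of a laminin and set its name, moved apart. Lama5, whose chain is found in laminins of many epithelia, read 9.03, 8.99 and 9.02 in shControl, 10.63, 10.34 and 10.58 in shPhf5a, and 9.86 on each of the shPaf1 arrays. All shPhf5a arrays lay above all shPaf1 arrays, and these above all controls. The rise in shPhf5a, 1.502 log2 units (SE 0.07, 2.83-fold, adjusted p = 1.91e-06), exceeded every other difference among the members in the 3 comparisons. In shPaf1 Lama5 rose by 0.85 (SE 0.07, 1.80-fold, adjusted p = 1.49e-05), and it was lower there than in shPhf5a (-0.65, SE 0.07, adjusted p = 0.000124).

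Lama1 encodes the alpha chain of the embryonic laminin that primitive endoderm secretes. It read 8.61, 8.64 and 8.75 in shControl, 8.37, 8.21 and 8.29 in shPhf5a and 8.67, 8.73 and 8.70 in shPaf1. The shPhf5a arrays lay below all others, and shPaf1 overlapped shControl. Lama1 fell in shPhf5a (-0.38, SE 0.06, 1.30-fold, adjusted p = 0.000652), the one fall among the members against the control. In shPaf1 the difference was 0.04 with a 95% confidence interval from -0.09 to 0.17 (adjusted p = 0.71). The knockdowns differed by 0.41 (SE 0.06, adjusted p = 0.000557), with Lama1 higher in shPaf1. Set against their own shControl means, the change of Lama5 exceeded that of Lama1 by 1.91, 1.78 and 1.94 log2 units on the shPhf5a arrays and by 0.84, 0.78 and 0.81 on the shPaf1 arrays, while the control arrays lay between -0.08 and 0.07.

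The beta and gamma chains, which both alpha chains can pair with, rose in both knockdowns by amounts that the test did not tell apart. Lamb1 read 8.54, 8.52 and 8.52 in shControl, 9.21, 9.09 and 9.08 in shPhf5a and 9.24, 9.14 and 9.22 in shPaf1. Both knockdowns lay clear of the control and overlapped each other. Lamb1 rose by 0.60 in shPhf5a (SE 0.05, 1.51-fold, adjusted p = 2.53e-05) and by 0.67 in shPaf1 (SE 0.05, 1.60-fold, adjusted p = 8.97e-06), and the difference between knockdowns was 0.08, with a 95% confidence interval from -0.04 to 0.19.

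Lamc1, the gamma chain of nearly all laminins, changed least among the members that rose. It read 10.26, 10.22 and 10.27 in shControl, 10.48, 10.38 and 10.40 in shPhf5a and 10.49, 10.57 and 10.55 in shPaf1. All knockdown arrays lay above all control arrays, within a narrow range. The rise was 0.17 in shPhf5a (SE 0.05, 1.13-fold, adjusted p = 0.0166) and 0.29 in shPaf1 (SE 0.05, 1.22-fold, adjusted p = 0.000891). The first of these missed the threshold without shControl replicate 2 (0.16, adjusted p = 0.0596) or shPhf5a replicate 1 (0.14, adjusted p = 0.0515), and grew to 0.28 after quantile normalization. Between the knockdowns the difference was 0.12, with a 95% confidence interval from 0.01 to 0.22 and an adjusted p of 0.099 (limma), which became 0.0445 with array weights.

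**Figure D1:**
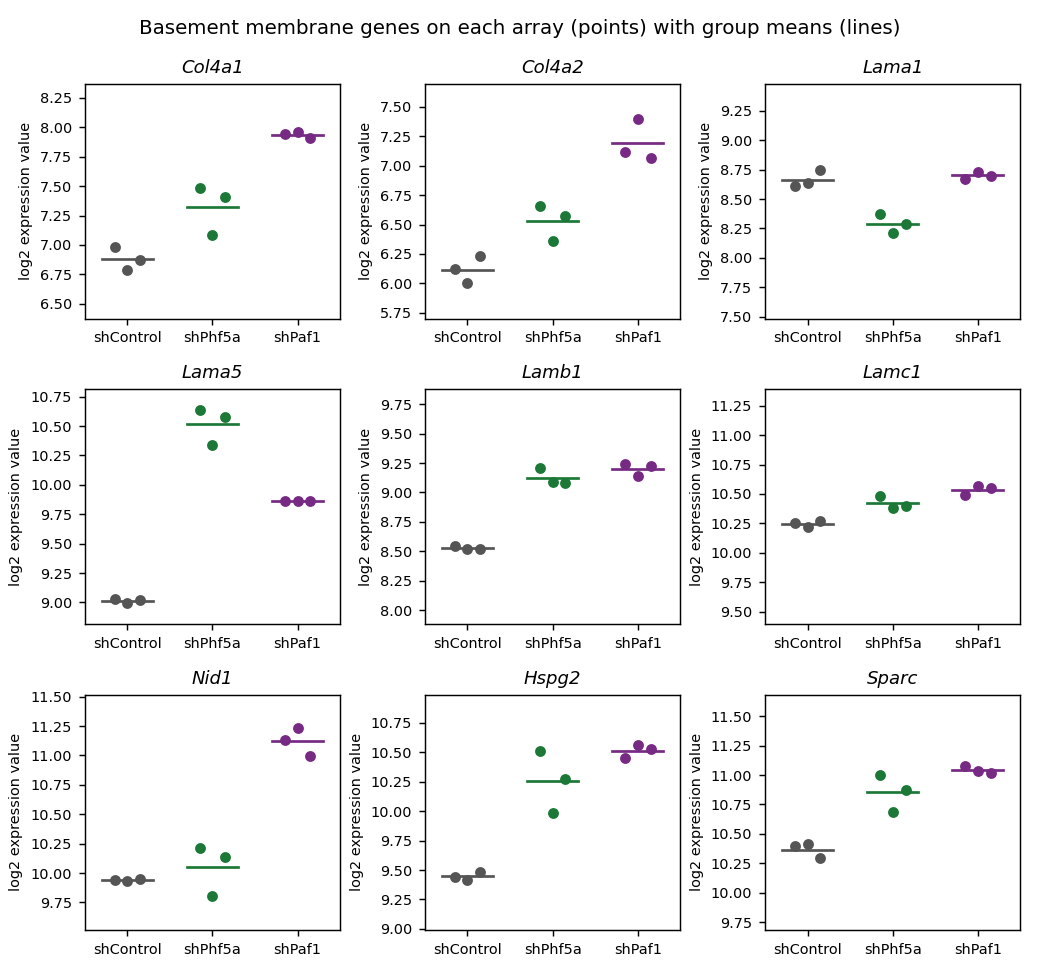
Log2 expression value (vertical axis, spanning 2 log2 units in every panel) of the 9 genes on each array; points are the 3 arrays of a group in replicate order and lines are group means. Col4a1, Col4a2 and Nid1 are highest in shPaf1, Lama5 is highest in shPhf5a, and Lama1 is lowest in shPhf5a.

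Nid1 encodes nidogen-1, which binds the gamma 1 chain of laminin and collagen IV. It read 9.94, 9.93 and 9.95 in shControl, 10.22, 9.80 and 10.14 in shPhf5a and 11.13, 11.23 and 10.998 in shPaf1. The shPaf1 arrays lay above all others, and the shPhf5a arrays lay on both sides of the controls. Nid1 rose by 1.18 in shPaf1 (SE 0.10, 2.27-fold, adjusted p = 1.68e-05), and shPaf1 exceeded shPhf5a by 1.07 (SE 0.10, adjusted p = 5.5e-05). The difference between shPhf5a and shControl was 0.11, with a 95% confidence interval from -0.12 to 0.34 (adjusted p = 0.454). That comparison turned on 1 array: without shPhf5a replicate 2 it was 0.23 and passed (adjusted p = 0.0234). Nid1 was the member with a second probe set, which read 9.44, 9.54 and 9.50 in shControl, 9.75, 9.25 and 9.53 in shPhf5a and 10.85, 10.83 and 10.66 in shPaf1. Its differences from shControl, in a fit of every probe set, were 1.29 in shPaf1 (SE 0.11, adjusted p = 3.54e-05) and 0.02 in shPhf5a (SE 0.11, adjusted p = 0.915).

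Hspg2 encodes perlecan, the heparan sulfate proteoglycan of basement membranes. It read 9.44, 9.42 and 9.48 in shControl, 10.51, 9.98 and 10.27 in shPhf5a and 10.45, 10.56 and 10.53 in shPaf1. Both knockdowns lay above the control, and the shPhf5a arrays were spread widely. Hspg2 rose by 0.81 in shPhf5a (SE 0.11, 1.75-fold, adjusted p = 0.000302) and by 1.07 in shPaf1 (SE 0.11, 2.10-fold, adjusted p = 4.89e-05). The difference between the knockdowns was 0.26, with a 95% confidence interval from 0.01 to 0.50 and a limma adjusted p of 0.114. It passed without shPhf5a replicate 1 (0.39, adjusted p = 0.00819) and with array weights (0.24, adjusted p = 0.0286).

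Sparc encodes a secreted protein that binds collagen IV and is abundant in parietal endoderm. It read 10.39, 10.41 and 10.29 in shControl, 10.997, 10.69 and 10.88 in shPhf5a and 11.07, 11.03 and 11.02 in shPaf1. The groups did not overlap. Sparc rose by 0.49 in shPhf5a (SE 0.08, 1.40-fold, adjusted p = 0.000687) and by 0.67 in shPaf1 (SE 0.08, 1.60-fold, adjusted p = 8.63e-05). The difference between the knockdowns was 0.19, with a 95% confidence interval from 0.02 to 0.36 and an adjusted p of 0.0967 (limma), and it passed without shPhf5a replicate 1 (0.26, adjusted p = 0.0202). Lamb1 and Sparc, whose windows are printed above, had the smallest root mean square difference of changes among the 36 pairs, 0.0926 log2 units, and Lama1 and Lama5 the largest, 1.18.

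Against shControl, 7 of the 9 members were called higher and 1 lower in shPhf5a, at a limma adjusted p under 0.05, where 16.7% of all genes were called higher and 20.7% lower. In shPaf1 8 were higher and 0 lower, where 18.0% of all genes were called higher and 17.8% lower (15.3% and 23.9% after centring); Lama1, the member not called, had an adjusted p of 0.71. The median difference over the members was 0.44 in shPhf5a and 0.85 in shPaf1, beside medians of -0.03 and -0.01 over all genes tested. Without shPhf5a replicate 2, 8 members were higher and 1 lower in shPhf5a, where 39.8% of all genes were called and 17.3% were higher. Without shControl replicate 2, 5 members were higher and 1 lower, and the share of all genes in that fit is not given here. All knockdown arrays lay above all control arrays for 7 members in shPhf5a, against 19.9% of all genes, and for 8 members in shPaf1, against 23.2%. Counting either direction, arrays were clear of each other for 8 members in each comparison, against 45.8% and 48.3% of all genes. Both comparisons share the control arrays. The members were chosen with earlier results of these data known, so that these counts describe them and are no test of the set.

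Set directly against each other, the knockdowns differed in 5 members, with 4 called higher in shPaf1 (Col4a1, Col4a2, Lama1 and Nid1) and 1 lower (Lama5), where 29.0% of all genes were called, 16.3% higher and 12.7% lower. The median over the members was 0.26, beside 0.02 over all genes. Lamb1, Lamc1, Hspg2 and Sparc did not pass. Their 95% confidence intervals ended at 0.19 for Lamb1, 0.22 for Lamc1, 0.36 for Sparc and 0.50 for Hspg2.

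**Figure D2:**
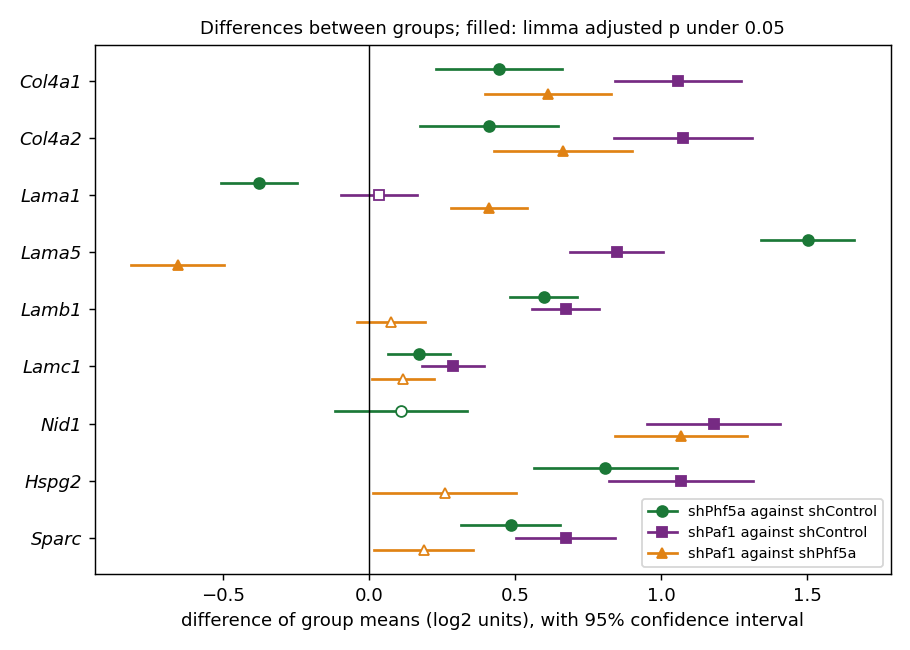
Difference of group means in log2 units (horizontal axis, lines are 95% confidence intervals) for each member in the 3 comparisons, with filled symbols where the limma adjusted p was under 0.05. The shPaf1 against shPhf5a symbols lie left of 0 for Lama5 and right of it for the other members, and those of Lamb1, Lamc1, Hspg2 and Sparc are open.

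The genes whose values ran closest to those of Col4a1 were picked by the root mean square difference over the 9 arrays, each gene taken relative to its own shControl mean, among 10566 genes above the median level that are no members. They were Ndrg1 (0.0673), Ptpn23 (0.0924), Plaur (0.0944), Ctsb (0.0973) and Prkx (0.0985), and Col4a2 stood at 0.0978. Plaur encodes the urokinase receptor and Ctsb the protease cathepsin B. Ndrg1 was 0.51 higher in shPhf5a (adjusted p = 0.000964) and 0.99 higher in shPaf1 (adjusted p = 1.68e-05). For Lamc1, with its small changes, the closest were Rab7 (0.027), Iars (0.0303), Slc2a1 (0.0328), Zfp36l1 (0.0368) and Trpc4ap (0.0379), and the closest member was Sparc at 0.297. Arrays of 1 group share their treatment, so that these values describe likeness over 3 groups more than over 9 independent samples.

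The other chains of the same families were read beside the members. Of 10 measured collagen IV and laminin chains outside the members, 2 were higher and 0 lower in shPhf5a, where 16.7% of all genes were called higher, and 0 were called in shPaf1 (limma). When each array was centred on its median, 2 were lower in shPhf5a as well (Col4a5 and Col4a6) and 2 were lower in shPaf1 (Col4a5 and Lama2). The chains that rose in shPhf5a were Lamb3 (0.48, SE 0.07, adjusted p = 0.000629) and Lama3 (0.44, SE 0.09, adjusted p = 0.00364), chains of the laminin of skin and other stratified epithelia. In shPaf1 both were lower than in shPhf5a (-0.52 with adjusted p = 0.000604, and -0.31 with adjusted p = 0.0287). Lamb2 was 0.20 higher in shPaf1 than in shPhf5a (adjusted p = 0.046), a call lost after quantile normalization or centring. The median difference of these chains was -0.05 in shPhf5a and -0.02 in shPaf1.

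Other components of the sheet moved with the members in part. Of 16 measured, 6 were higher and 1 lower in shPhf5a, where 16.7% of all genes were called higher and 20.7% lower. In shPaf1 7 were higher and 1 lower, where 18.0% of all genes were called higher and 17.8% lower. The medians were 0.10 and 0.12. After centring the counts were 4 higher and 2 lower in shPhf5a, and 6 higher and 2 lower in shPaf1. The shares of all genes called higher and lower were then 15.2% and 24.3% in shPhf5a, and 15.3% and 23.9% in shPaf1. With quantile normalization these shares were 18.1% and 20.3% in shPhf5a, and 17.5% and 19% in shPaf1. Tinagl1, a matrix protein related to cathepsins, rose from a mean of 7.08 in shControl to 8.82 in shPhf5a (1.75, SE 0.14, adjusted p = 1.95e-05) and 10.17 in shPaf1 (3.10, SE 0.14, adjusted p = 7.34e-07). Npnt, nephronectin, an integrin ligand, rose by 1.75 in shPhf5a (SE 0.11, adjusted p = 4.59e-06) and by 1.32 in shPaf1 (SE 0.11, adjusted p = 1.23e-05). Pxdn encodes peroxidasin, which forms the sulfilimine bonds between collagen IV molecules. It rose by 1.58 in shPaf1 (SE 0.07, adjusted p = 8.62e-07) and its mean was 7.34 in shPhf5a and 7.31 in shControl (adjusted p = 0.796, limma), and the knockdowns differed by 1.55 (adjusted p = 1.62e-06). Nid2, the other nidogen, rose by 0.48 in shPhf5a (SE 0.04, adjusted p = 3.53e-05) and by 0.66 in shPaf1 (SE 0.04, adjusted p = 4.13e-06). Agrn, agrin, rose by 0.73 in shPaf1 (SE 0.06, adjusted p = 1.1e-05), and Smoc1 fell by 0.55 in shPhf5a (SE 0.06, adjusted p = 7.8e-05).

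Receptors were called higher in 6 and lower in 1 of 10 genes in each knockdown, with medians of 0.30 in shPhf5a and 0.35 in shPaf1. The shares of all genes called higher and lower were 16.7% and 20.7% in shPhf5a, and 18.0% and 17.8% in shPaf1. After quantile normalization 8 receptors were higher and 2 lower in shPhf5a, and 7 higher and 1 lower in shPaf1. After centring 6 were higher and 2 lower in shPhf5a. The collagen receptor Ddr1 rose by 0.81 in shPhf5a (SE 0.06, adjusted p = 1.45e-05) and by 1.12 in shPaf1 (SE 0.06, adjusted p = 2e-06). Dag1, dystroglycan, rose by 0.68 (SE 0.07, adjusted p = 5.8e-05) and 0.71 (SE 0.07, adjusted p = 3.36e-05). Of the integrin chains, Itga3, Itga7, Itgb1 and Itgb4 differed between the knockdowns, and Itga1, Itga2 and Itga6 did not pass. Itgb4, a chain of the hemidesmosome integrin, rose by 1.06 in shPhf5a (SE 0.14, adjusted p = 0.000312) and was lower in shPaf1 than in shPhf5a by 0.78 (-0.78, adjusted p = 0.00259). Itga3 rose by 0.32 in shPhf5a (SE 0.06, adjusted p = 0.00206) and by 0.76 in shPaf1 (SE 0.06, adjusted p = 1.13e-05), and Itgb1 rose by 0.56 in shPaf1 (SE 0.06, adjusted p = 5e-05). Bcam, a receptor of the laminin alpha 5 chain, fell in both (-0.30 with adjusted p = 0.001, and -0.32 with adjusted p = 0.000638).

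The enzymes and carriers of collagen synthesis were higher in 9 and lower in 2 of 13 genes in shPaf1, where 18.0% of all genes were higher and 17.8% lower. They were higher in 3 and lower in 5 in shPhf5a, where 16.7% of all genes were higher and 20.7% lower. Their medians were 0.39 in shPaf1 and 0.03 in shPhf5a. After quantile normalization the counts in shPhf5a were 4 higher and 3 lower. Serpinh1, the collagen chaperone of the endoplasmic reticulum, rose by 0.83 in shPhf5a (SE 0.05, adjusted p = 4.65e-06) and 0.96 in shPaf1 (SE 0.05, adjusted p = 1.43e-06). P4ha2, a catalytic subunit of prolyl 4-hydroxylase, rose by 1.78 in shPhf5a (SE 0.12, adjusted p = 8.52e-06) and 0.91 in shPaf1 (SE 0.12, adjusted p = 0.000299). The lysyl hydroxylase Plod2 rose by 0.78 and 0.97 (adjusted p = 4.03e-05 and 8.47e-06, limma). P3h2, the prolyl 3-hydroxylase that acts on collagen IV, rose by 1.15 in shPaf1 (SE 0.09, adjusted p = 1.21e-05), and Mia2, of the export sites for large cargo, by 1.22 (SE 0.09, adjusted p = 8.89e-06). Both are dim: the shControl means were 5.84 for P3h2 and 5.12 for Mia2, below the median of all genes (6.70). The shPaf1 means were 6.99 and 6.34. Mia3 fell in shPhf5a (-0.54, SE 0.07, adjusted p = 0.000301) and was 0.79 higher in shPaf1 than there (adjusted p = 5.15e-05). The other genes lower in shPhf5a were P4hb (-0.54, limma adjusted p = 0.000237), Plod1 (-0.50, adjusted p = 0.000362), Ppib (-0.25, adjusted p = 0.0113) and Colgalt1 (-0.23, adjusted p = 0.021). The calls for Ppib and Colgalt1 there were lost after quantile normalization. Those lower in shPaf1 were Crtap (-0.81, adjusted p = 4.87e-06) and Ppib (-0.43, adjusted p = 0.000472).

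Genes of crosslinking and turnover were higher in 7 and lower in 0 of 9 in shPaf1, beside 18.0% and 17.8% of all genes. They were higher in 2 and lower in 2 in shPhf5a, beside 16.7% and 20.7% of all genes. Their medians were 0.85 in shPaf1 and -0.15 in shPhf5a. After quantile normalization or centring 4 were lower in shPhf5a, with Loxl1 and Timp2 added, and without shPhf5a replicate 2 the counts there were 1 higher and 4 lower. Mmp9, a gelatinase that also cleaves collagen IV, rose by 2.65 in shPaf1 (SE 0.12, adjusted p = 7.09e-07). Mmp2, the other gelatinase, rose by 1.05 in shPhf5a (SE 0.06, adjusted p = 2.83e-06) and 1.00 in shPaf1 (SE 0.06, adjusted p = 2.11e-06). Mmp14, the membrane protease that activates the Mmp2 protein, fell by 0.50 in shPhf5a (SE 0.07, adjusted p = 0.000327) and rose by 1.01 in shPaf1 (SE 0.07, adjusted p = 4.71e-06). The inhibitor gene Timp1 was at -1.60 in shPhf5a (SE 0.22, adjusted p = 0.000329).

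**Figure D3:**
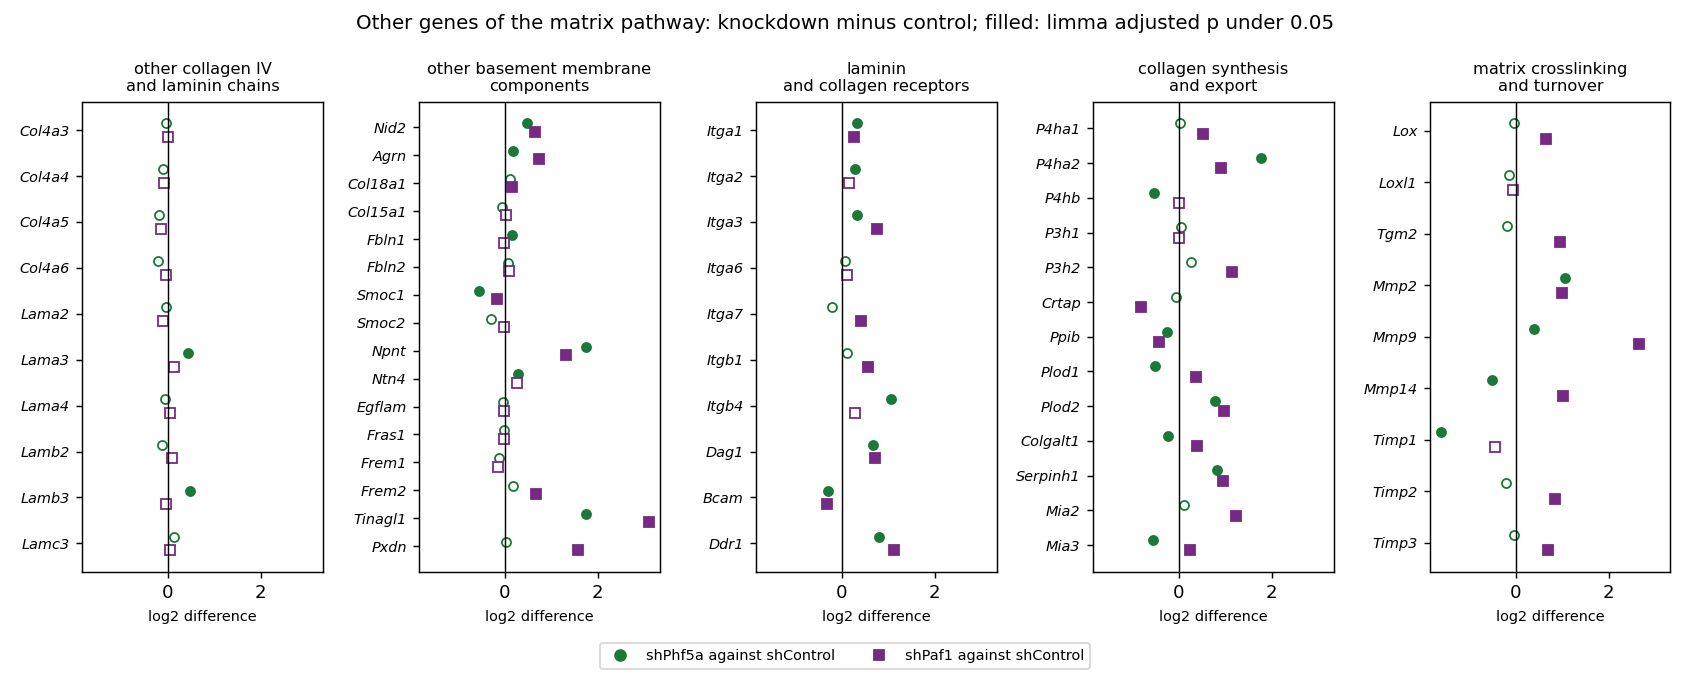
Difference from shControl in log2 units (horizontal axes) for the other measured genes of 5 groups, with circles for shPhf5a and squares for shPaf1, filled where the limma adjusted p was under 0.05. Among the other collagen IV and laminin chains only Lama3 and Lamb3 in shPhf5a have filled symbols, and most crosslinking and turnover genes lie right of 0 in shPaf1.

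Cells that make basement membrane in the embryo have other markers, which were read beside the members. In bulk RNA, more cells of a type and more RNA per cell cannot be told apart. Among all genes, 16.7% were called higher and 20.7% lower in shPhf5a, and 18.0% and 17.8% in shPaf1. Of 14 measured markers of primitive and parietal endoderm, 5 were higher and 0 lower in each knockdown, with medians of 0.17 in shPhf5a and 0.05 in shPaf1. After centring 4 were higher and 1 lower in shPhf5a, and 4 higher and 3 lower in shPaf1, with the call for Dab2 in shPaf1 lost. Their mean level per array ran from 6.65 to 6.73 in shControl, from 6.89 to 7.19 in shPhf5a and from 6.91 to 6.92 in shPaf1, and between 7 and 8 of them lay above the median of all genes in shControl, between 8 and 11 in shPhf5a and between 7 and 9 in shPaf1. Gata6, a regulator of this lineage, rose by 1.78 in shPhf5a (SE 0.20, adjusted p = 0.000109) and by 1.03 in shPaf1 (SE 0.20, adjusted p = 0.00263). Dab2, a trafficking adaptor of these cells, rose by 1.19 (SE 0.13, adjusted p = 8.08e-05) and 0.40 (SE 0.13, adjusted p = 0.0331), and Pdgfra by 0.58 (SE 0.08, adjusted p = 0.000406) and 0.96 (SE 0.08, adjusted p = 1.65e-05). Gata4 rose in shPaf1 (0.68, SE 0.10, adjusted p = 0.000366). Gata6 and Dab2 were lower in shPaf1 than in shPhf5a (-0.76 with adjusted p = 0.0178, and -0.79 with adjusted p = 0.00119), as Lama5 was, whereas Gata4 and Pdgfra were higher (0.48 with adjusted p = 0.00412, and 0.39 with adjusted p = 0.00584), as the collagen IV genes were. Sox17, a defining factor of this lineage, had means of 6.51, 6.65 and 6.59 in shControl, shPhf5a and shPaf1, all below the median of all genes, with adjusted p of 0.183 and 0.512 against shControl (limma). Their part in the members' changes was not tested.

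Markers of other sources of matrix were read in the same way, beside the same shares of all genes. These were 16.7% higher and 20.7% lower in shPhf5a, and 18.0% higher and 17.8% lower in shPaf1. Of 10 fibroblast markers 0 were called in shPhf5a and 2 were higher in shPaf1, Dcn (0.57, SE 0.06, adjusted p = 5.7e-05) and Col1a1 (0.22, SE 0.07, adjusted p = 0.037); their mean level ran from 5.82 to 5.89 in shControl, from 5.77 to 5.82 in shPhf5a and from 5.93 to 6.01 in shPaf1. The call for Col1a1 was lost after quantile normalization and after centring. Between 2 and 3 of these markers lay above the median of all genes on every array. Of 7 endothelial markers 2 were higher and 2 lower in shPhf5a and 3 higher and 0 lower in shPaf1 (2 higher and 1 lower after quantile normalization), and their mean level ran from 6.23 to 6.29 in shControl, from 6.39 to 6.49 in shPhf5a and from 6.44 to 6.46 in shPaf1. In shPhf5a Tek (1.09, SE 0.10, limma adjusted p = 4.02e-05) and Cdh5 (0.67, SE 0.17, adjusted p = 0.0097) rose. Cldn5 (-0.34, SE 0.06, adjusted p = 0.00138) and Esam (-0.32, SE 0.10, adjusted p = 0.0264) fell there. In shPaf1 the genes called higher were Cdh5, Kdr and Esam, and Tek was at -0.26 (adjusted p = 0.0789). Of 8 trophectoderm markers 6 were higher and 0 lower in shPhf5a, and 4 higher and 1 lower in shPaf1. Their mean level ran from 6.39 to 6.52 in shControl, from 7.04 to 7.12 in shPhf5a and from 6.86 to 6.90 in shPaf1. The call for Eomes in shPhf5a was lost after quantile normalization and after centring, which left 5 higher. Without shPhf5a replicate 2 the calls for Eomes and Cdx2 there were lost, which left 4 higher, where 17.3% of all genes were higher. Hand1 led the trophectoderm markers, with 1.87 in shPhf5a (SE 0.18, adjusted p = 4.58e-05) and 1.78 in shPaf1 (SE 0.18, adjusted p = 4.52e-05). Tfap2c rose in shPhf5a (0.87, SE 0.04, limma adjusted p = 2.26e-06) and fell in shPaf1 (-0.30, SE 0.04, adjusted p = 0.000412). Between the knockdowns, Tfap2c (-1.17, adjusted p = 5.82e-07) and Gata3 (-0.80, adjusted p = 0.000101) were lower in shPaf1, and Krt7 was higher (0.40, adjusted p = 0.00239). Of the 8 embryonic stem cell markers 6 were lower and 0 higher in each knockdown, with medians of -0.46 and -0.44; after quantile normalization Sox2 was called higher in shPhf5a. The part of these cell types in the members' changes was not tested.

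**Figure D4:**
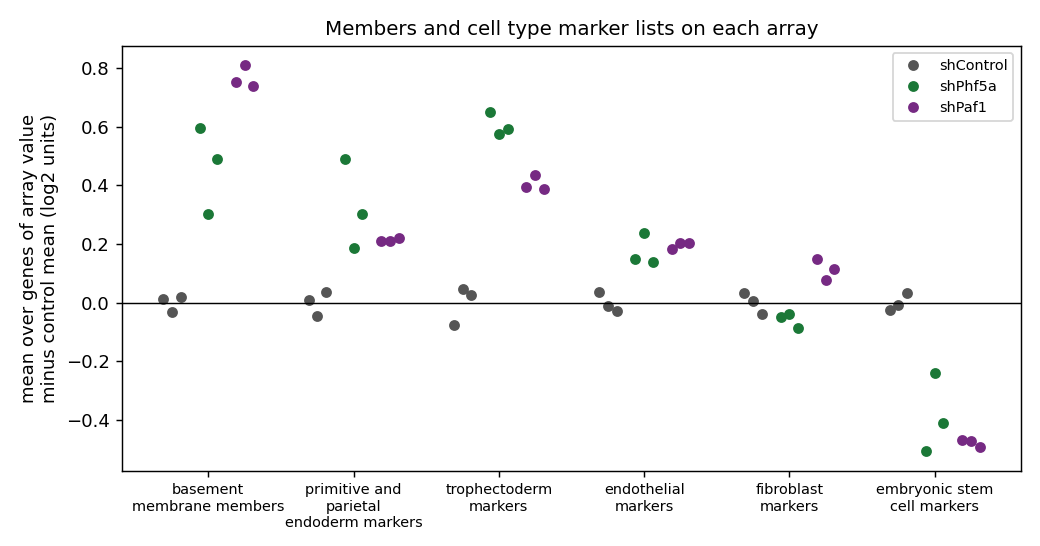
Mean over the genes of a list of the array value minus the shControl mean, in log2 units (vertical axis), for the members and 5 marker lists; each point is 1 array, coloured by group. The members stand between 0.30 and 0.59 in shPhf5a and between 0.74 and 0.81 in shPaf1, and the stem cell markers lie below 0 in both.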

How the data were processed

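Gene expression was read from 9 arrays, 3 each of shControl, shPhf5a and shPaf1. The authors deposited 1 log2 value for each probe set on each array, from 4.35 to 13.7. That they are log2 was inferred from this range. How the signals were summarised and normalized is not given in the sources used here. Another log base would change folds but no call. Per the labels' protocols, cDNA was made and labelled from 125 ng of total RNA with whole-transcript kits. No scan date or slide was read, and therefore no batch tested, and the number of arrays limits the precision.

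The platform annotation gave 1 symbol for 23521 of the 33793 probe sets, several for 1814 and listed no entry for 8458; 23328 were found in RefSeq by gene ID. The probe set with the highest mean was kept for each of 22180 genes. limma 3.58.1 (lmFit, eBayes) in R 4.3.3 was fitted to all of them, with 1 mean per group over 9 arrays and Benjamini-Hochberg adjustment at 0.05. Members and lists were chosen with earlier results of these data known. Besides the 9 members and both targets, up to 4 called genes with the largest change per list and comparison were eligible to be named. Bcam, Sox17, Itga2, Itga6, Col4a5, Col4a6, Lama2, Loxl1, Timp2, P4hb, Ppib, Colgalt1 and Crtap were named after their values were seen. Of 61 genes in 5 pathway lists 58 were measured. Lists were described by counts, without a list test. The fit was tested on simulated data. Alternatives were quantile normalization, centring, a filter on dim genes, other probe set rules, variance models, array weights, fits of 6 arrays, a replicate block and leaving out each array. Scalings and the fit without shPhf5a replicate 2 were applied to the lists after seeing the data.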

Additional observations from a re-analysis of the deposited data

How the results depend on the processing

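Each of the 27 results (9 members, 3 comparisons) was recomputed in up to 18 ways, 483 fits in all. Of these 475 kept direction, where called, and side of the threshold, 3 lost a call, 5 gained one and 0 reversed a called value. In shPaf1 against shControl all 161 did so. The losses and gains concern Col4a2, Lamc1 and Nid1 in shPhf5a and Lamc1, Hspg2 and Sparc between the knockdowns, and stand beside those results. Counts of called members ran from 6 to 9 in shPhf5a, stayed at 8 in shPaf1 and ran from 5 to 7 between the knockdowns when 1 array was left out. The share of all genes called in shPhf5a was 37.4% with all arrays and 39.8% without shPhf5a replicate 2. With only genes above the median level, where Col4a2 was not tested, the counts of called members were 7, 7 and 4, and with array weights 8, 8 and 7. With the replicate block they were 8, 8 and 5, as without it. The shares of all genes called in these fits are not given here. Whether the counts moved with those of all genes therefore cannot be read from them. The same-numbered arrays did not deviate together throughout (correlations from -0.0578 to 0.106). With 3 arrays per group, and labels that do not say how replicates were made, this cannot exclude a batch shared by number. The median of all genes was moved by less than 0.1 by either scaling (at most to -0.07, for shPaf1 after centring). Dim genes, such as the other collagen IV chains, may change by more than the arrays show.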

Other observations

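Of the 33793 probe sets, between 2.52% and 4.42% had values identical to the last digit on both arrays of a pair, over the 36 pairs of arrays. Lama5 was among them: it read 9.86366 on shPaf1 replicates 1 and 2 and 9.86448 on replicate 3, so that its SD within shPaf1 was 0.000477, beside 0.0202 in shControl and 0.157 in shPhf5a. The source of identical values was not tested.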
